A study of Mus musculus with 14 samples.

Results

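The 8 genes described here encode proteins that set how long messenger RNAs last: the AU-rich element binders Zfp36, Zfp36l1, Zfp36l2 and Elavl1, and the antiproliferative BTG/TOB genes Btg1, Btg2, Tob1 and Tob2. They were chosen by gene symbol for these roles, and all 8 were found among the 52459 genes of the count tables. AU-rich elements are runs of the core ATTTA (written here as DNA) in the 3′ untranslated region (3′UTR) of many unstable transcripts. ZFP36 proteins bind them and bring in the CCR4-NOT complex, which shortens the poly(A) tail, whereas ELAVL1 (HuR) binds similar sequences and is known mainly for protecting transcripts. BTG and TOB proteins contact the deadenylases of CCR4-NOT and also poly(A)-binding protein. Transcripts of several of these genes are themselves short-lived, and N6-methyladenosine (m6A) is another mark that leads transcripts to CCR4-NOT through its reader proteins.

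The study compared wild-type (WT) E14Tg2a cells, a mouse embryonic stem cell (mESC) line, with METTL14 R255K cells, a CRISPR-Cas9 knock-in line of the same background grown from an isolated colony, whose METTL14, a subunit of the m6A methyltransferase, carries lysine in place of an arginine. Both were grown on gelatin in serum with LIF. For the decay measurement each genotype received 5 µg/ml actinomycin D, which blocks transcription, for 0, 4 or 8 h, and polyadenylated RNA was sequenced as 1 library per genotype and time, with 13812160 to 18813640 counts each. For m6A, 2 immunoprecipitated and 2 input libraries per genotype were sequenced without actinomycin D, and the data used here are 1 peak list per genotype. There are therefore no replicate values for any measurement below, no p-value is given, and all intervals are 95% intervals that cover counting error only.

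All 6 mESC markers examined were at 1 FPKM or more in both untreated libraries, with a summed level of 1713 FPKM in WT and 1324 FPKM in R255K cells. FPKM is the count per kilobase of exon scaled to the total of the library, which allows levels of different genes to be compared. Each marker of another lineage was lower than each mESC marker in both untreated libraries, although Sox1 reached 13.4 FPKM in WT cells. The 5 fibroblast markers summed to 1.64 FPKM in WT and 5.94 FPKM in R255K cells. Postn was at 0 in both, and the others were all higher in R255K cells. Thy1 was at 1.55 and 4.01, Col1a1 at 0.0787 and 1.46, Col1a2 at 0.0139 and 0.391, and Col3a1 at 0 and 0.0716. The 3 mesoderm markers summed to 1.23 and 3.52. The 4 endoderm markers summed to 5.37 and 5.16, with Gata4 at 3.35 and 1.74 and Foxa2 at 0.291 and 1.67. The 3 neuroectoderm markers summed to 16.5 and 9.27, with Sox1 at 13.4 and 1.76, Nes at 1.84 and 6.39, and Pax6 at 1.2 and 1.13. Their part in the results below was not tested, and in bulk RNA fewer cells that express a gene cannot be told apart from less RNA per cell. Mettl14 itself stood at 5.27, 3.38 and 2.26 FPKM at 0, 4 and 8 h in WT cells and at 2.58, 2.03 and 1.5 FPKM in R255K cells. A count per gene does not show the substituted codon.

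The sequences below show the elements on which the description turns. The first set is the 9-base element TTATTTATT, an extended AU-rich core that ZFP36 proteins bind, as found in the 3′UTR of a single reference transcript per gene. It was present in Zfp36, Zfp36l1, Zfp36l2 and Elavl1 and not in the BTG/TOB genes. Coordinates are mm10 (GRCm38), all 4 stretches lie on the minus strand, capitals mark the element, and 10 bases are shown to each side.
Zfp36, chr7:28376951-28376979, 589 bases after the stop codon: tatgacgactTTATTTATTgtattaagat
Zfp36l1, chr12:80108167-80108195, 1404 bases after the stop codon: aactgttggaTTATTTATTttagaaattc
Zfp36l2, chr17:84184914-84184942, 821 bases after the stop codon: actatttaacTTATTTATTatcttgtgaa
Elavl1, chr8:4285788-4285816, 3794 bases after the stop codon: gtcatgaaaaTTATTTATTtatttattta

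The stretch shown for Elavl1 is the first of 8 overlapping or adjacent copies. Genes with a 3′UTR of like length (within 25%), the member itself included, served for comparison. The element occurred at least once in 4.59% of them for Zfp36, 8.84% for Zfp36l1, 8.66% for Zfp36l2 and 17.1% for Elavl1. As many as 8 copies occurred in 0.0997% of the 1003 genes compared with Elavl1, which is Elavl1 alone. Over all 10301 genes examined it occurred in 7.75%. The shorter core ATTTA, which the longer element contains, was searched on the same strand and was found in all 8 members, against 69% of all genes. Among genes with a 3′UTR of like length, it was held by 63.6% for Tob1 and up to 98.2% for Btg1. At least as many copies as in the member occurred in 2.79% of them for Elavl1 and up to 52.9% for Tob2. Its density ran from 1.63 per kilobase in Tob2 to 4.9 per kilobase in Zfp36l1, so that every member lay above the median of 1.27 per kilobase. The Pumilio element TGTANATA was found only in Btg1, with 2 copies, and at least 1 copy was held by 50.7% of genes with a 3′UTR of like length. These are matches of letters and do not show that a protein binds there.

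The second set is the m6A motif GGAC nearest to the summit of 7 peaks, the 4 WT peaks that had no counterpart in R255K cells and 3 others that are described below. Capitals mark the motif and the sequence is that of the gene's own strand.
Zfp36, peak in WT only, chr7:28379105-28379128, minus strand, intron of the reference transcript and exon of another Zfp36 transcript: cttaggcccgGGACgcctccgtac
Zfp36l1, peak in WT only, chr12:80109693-80109716, minus strand, coding: attctctctcGGACcacgagggct
Elavl1, peak in WT only, chr8:4289267-4289290, minus strand, 3′UTR: cagtcactctGGACggtggtggga
Tob2, peak in WT only, chr15:81851379-81851402, minus strand, coding: ccccagagctGGACaaagagatca
Zfp36l2, peak in both, chr17:84185794-84185817, minus strand, coding: cccccagcctGGACcctggccgtc
Btg1, peak in both, chr10:96618379-96618402, plus strand, coding: ccagcggattGGACtgagcagtca
Btg1, peak in R255K only, chr10:96617478-96617501, plus strand, intron: cggggcgcggGGACcgtcgcgggt

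The level of each transcript over the 6 libraries is described first, starting with the ZFP36 family, whose members promote decay. Zfp36 (tristetraprolin, chr7:28376784-28380253, minus strand) had the lowest untreated level of the 8. It was at 2.99, 0.154 and 0.167 FPKM at 0, 4 and 8 h in WT cells and at 3.02, 0.248 and 0.184 FPKM in R255K cells. The libraries at 4 and 8 h held between 8 and 16 counts, so the intervals of the genotypes overlapped at all 3 times. At 8 h 5.58% of the untreated level was left in WT (2.37 to 11.2) and 6.08% in R255K cells (3.08 to 10.9).

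Zfp36l1 (chr12:80107754-80113013, minus strand), a close relative of Zfp36 with the same zinc fingers, began at different levels. In WT cells it was at 24, 5.58 and 2.4 FPKM at 0, 4 and 8 h, and in R255K cells at 12.4, 6.38 and 4.98 FPKM. R255K cells thus had less of it than WT cells before the block and more of it at 8 h. The R255K level was 0.516 times the WT level at 0 h (0.467 to 0.57), 1.14 times at 4 h (0.97 to 1.35) and 2.08 times at 8 h (1.65 to 2.64). At 8 h 9.97% of the untreated level was left in WT (8.04 to 12.2) and 40.1% in R255K cells (34.7 to 46.4). Of its exonic bases 55.9% are also exon of Gm26669, a noncoding gene on the other strand, and without strand information reads there cannot be told apart. Gm26669 held 2 counts in the WT 0 h library and 0 in the other 5. Because the strand setting of the counting is unknown, these counts do not show how reads in the shared bases were assigned.

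Zfp36l2 (chr17:84183931-84187947, minus strand), the third family member, was higher in R255K cells throughout. It was at 19.7, 1.1 and 0.697 FPKM at 0, 4 and 8 h in WT cells and at 27.5, 5.86 and 4.13 FPKM in R255K cells. The gap between the genotypes was wider after the block than before it. The ratio of R255K to WT was 1.4 at 0 h (1.3 to 1.51), 5.35 at 4 h (4.05 to 7.18) and 5.92 at 8 h (4.13 to 8.72). At 8 h 3.55% of the untreated level was left in WT (2.44 to 4.98) and 15% in R255K cells (13.1 to 17).

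Elavl1 (chr8:4285382-4325413, minus strand), which encodes the ARE-binding stabiliser HuR, stood apart from the other 7 by its slow decay. It was at 17.6, 15.4 and 13 FPKM at 0, 4 and 8 h in WT cells and at 17.2, 14.3 and 15.8 FPKM in R255K cells. At 0 h the genotypes were level, with a ratio of 0.979 (0.931 to 1.03), and at 8 h R255K was 1.22 times WT (1.15 to 1.29). At 8 h 73.9% was left in WT (69.7 to 78.2) and 91.7% in R255K cells (87.1 to 96.6), close to the medians of all genes, 64.1% and 92%. The R255K value at 8 h was above that at 4 h, so those libraries do not describe a steady decline. The count table gives this gene an exonic length of 10363 bases against 5743 for its reference transcript, and its FPKM would be higher on the transcript's length.

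**Figure D1:**
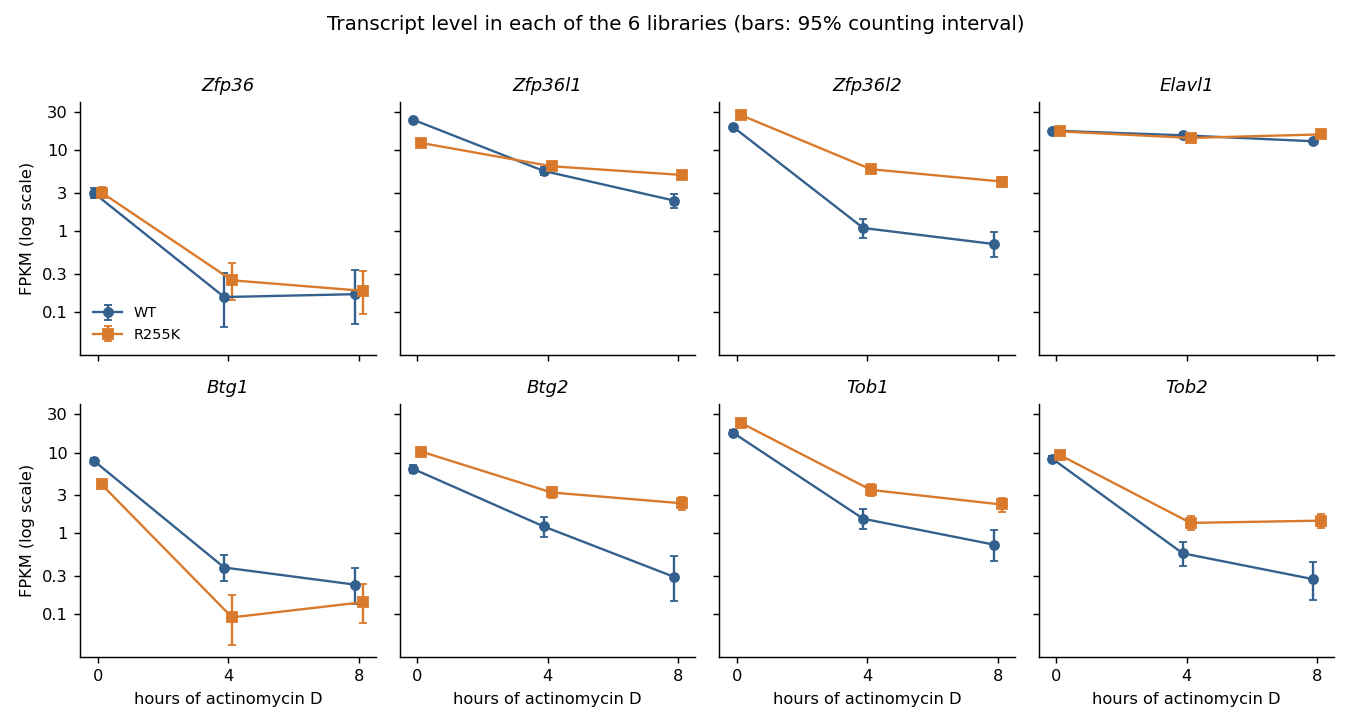
Level of each of the 8 transcripts (FPKM, log scale) against hours of actinomycin D, 1 point per library, for WT (blue circles) and R255K (orange squares), with 95% counting intervals as bars. Elavl1 stayed between 13 and 17.6 FPKM, whereas the other 7 were lower at 8 h than at 0 h in both genotypes, with R255K above WT at 8 h for Zfp36l1, Zfp36l2, Btg2, Tob1 and Tob2.

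Among the BTG genes, Btg1 (chr10:96617006-96622809, plus strand), an antiproliferative factor that is abundant in quiescent cells, had the smallest share left at 8 h in both genotypes. It was at 7.93, 0.379 and 0.233 FPKM at 0, 4 and 8 h in WT cells and at 4.04, 0.0917 and 0.141 FPKM in R255K cells. The R255K values were the lower ones at each time, although at 8 h, with 17 and 14 counts, the intervals overlapped. The R255K level was 0.509 times that of WT at 0 h (0.446 to 0.58), 0.242 times at 4 h (0.101 to 0.522) and 0.605 times at 8 h (0.276 to 1.3). At 8 h 2.94% was left in WT (1.7 to 4.74) and 3.5% in R255K cells (1.89 to 5.95).

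Btg2 (chr1:134075170-134079120, minus strand), a p53-responsive relative of Btg1, had the opposite order of genotypes. It was at 6.28, 1.22 and 0.29 FPKM at 0, 4 and 8 h in WT cells and at 10.3, 3.21 and 2.36 FPKM in R255K cells. R255K was higher at every time, by 1.65 times at 0 h (1.42 to 1.91), 2.64 times at 4 h (1.91 to 3.7) and 8.14 times at 8 h (4.39 to 16.7). The 8 h ratio was the highest of the 8 genes and rested on 11 counts in WT and 122 in R255K cells. At that time 4.63% was left in WT (2.28 to 8.4) and 22.9% in R255K cells (18.6 to 28).

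The TOB genes share the deadenylase-binding domain of the BTG family and carry a longer tail that contacts poly(A)-binding protein. Tob1 (chr11:94211454-94215495, plus strand) was at 17.7, 1.52 and 0.728 FPKM at 0, 4 and 8 h in WT cells and at 23.4, 3.45 and 2.28 FPKM in R255K cells. The R255K level was 1.32 times that of WT at 0 h (1.19 to 1.46) and 3.13 times at 8 h (1.97 to 5.16). Genes of chromosome 11 as a whole had a median log2 ratio of 0.58 at 0 h, against 0.06 for all genes, and relative to the genes of its chromosome the untreated Tob1 ratio was 0.883, so the direction of that difference depended on the reference. The part of the chromosome in it was not tested. At 8 h 4.1% was left in WT (2.59 to 6.21) and 9.72% in R255K cells (7.81 to 12).

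Tob2 (chr15:81848272-81858796, minus strand) was at 8.4, 0.568 and 0.272 FPKM at 0, 4 and 8 h in WT cells and at 9.3, 1.35 and 1.44 FPKM in R255K cells. The untreated levels were close, with a ratio of 1.11 (0.985 to 1.24), and the genotypes separated after the block. R255K was 2.37 times WT at 4 h (1.59 to 3.61) and 5.29 times at 8 h (3.07 to 9.77). At 8 h 3.24% was left in WT (1.8 to 5.38) and 15.5% in R255K cells (12.5 to 19). The R255K level at 8 h was 107% of that at 4 h (80.6 to 142), so no further loss was detectable at this depth.

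Before the block, 1 of the 8 genes, Btg2, was higher in R255K by over 1.5 times, where 20.8% of all genes were, and 2 of the 8, Zfp36l1 and Btg1, were lower by as much, where 19.5% were. The median log2 ratio of the 8 was 0.08 and that of all genes 0.06. Read against these shares, the untreated levels of the 8 genes did not stand out as a group, and within each family the ratios lay on both sides of 1. With counts scaled to Gapdh instead, the log2 ratios of Zfp36l1 and Btg1 turned from −0.96 and −0.97 to 0.48 and 0.46. At 4 h R255K was higher by over 1.5 times for 5 of the 8, Zfp36l2, Btg2, Tob1, Tob2 and, with an interval of 0.651 to 4.35, Zfp36, against 34.2% of all genes. At 8 h it was higher by as much for 5 of the 8, Zfp36l1, Zfp36l2, Btg2, Tob1 and Tob2, against 47.4%.

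**Figure D2:**
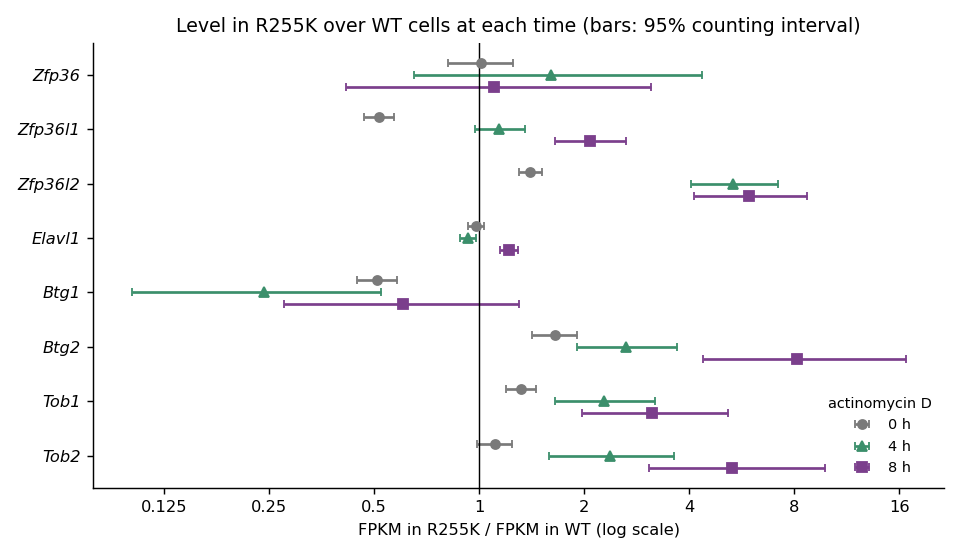
Ratio of the R255K to the WT level (FPKM with counts scaled to their sum, log scale) of each gene at 0 h (grey circles), 4 h (green triangles) and 8 h (purple squares), with 95% counting intervals. For Zfp36l1 the ratio passed from 0.516 at 0 h to 2.08 at 8 h, for Btg2 it ran from 1.65 to 8.14, and for Btg1 it was below 1 at all 3 times.

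To compare decay between the genotypes, a half-life was computed for each gene from its levels at 4 and 8 h relative to 0 h. Levels are scaled to the total of each library, so every half-life is relative to the other transcripts and is not an absolute one. The mESC marker Pou5f1, named after its values were seen, rose from 433 to 780 FPKM in WT cells between 0 and 8 h. All 8 genes had a positive decay rate in both genotypes, as 60.3% of all genes did in WT and 54.6% in R255K cells. In WT cells the half-life was 1.26 h for Zfp36 (1.06 to 1.54), 1.22 h for Zfp36l2 (1.14 to 1.31), 1.15 h for Btg1 (1.06 to 1.27), 1.75 h for Btg2 (1.53 to 2.03), 1.37 h for Tob1 (1.26 to 1.5) and 1.26 h for Tob2 (1.14 to 1.4). These 6 were under 2 h, a length below which 11% of all genes fell. Zfp36l1 followed at 2.12 h (1.99 to 2.28) and Elavl1 was far longer at 19.5 h (15.7 to 25.9). The order within the 6 was not resolved for Zfp36, Zfp36l2, Tob1 and Tob2, whose intervals overlapped, whereas Btg1 lay below Btg2 beyond counting error. The 8 genes had a median of 1.31 h, and the 5504 genes with a half-life in both genotypes one of 3.48 h.

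In R255K cells the half-life was 1.42 h for Zfp36 (1.23 to 1.69), 1.02 h for Btg1 (0.897 to 1.17), 1.8 h for Tob1 (1.68 to 1.94) and 1.93 h for Tob2 (1.78 to 2.12). These 4 of the 8 were under 2 h, against 2.3% of all genes. Zfp36l2 was at 2.22 h (2.1 to 2.35), Btg2 at 2.91 h (2.6 to 3.3), Zfp36l1 at 4.95 h (4.29 to 5.84) and Elavl1 at 24.2 h (18.6 to 34.7). Apart from Elavl1, every member stayed below the R255K median of the same 5504 genes, 8.08 h.

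**Figure D3:**
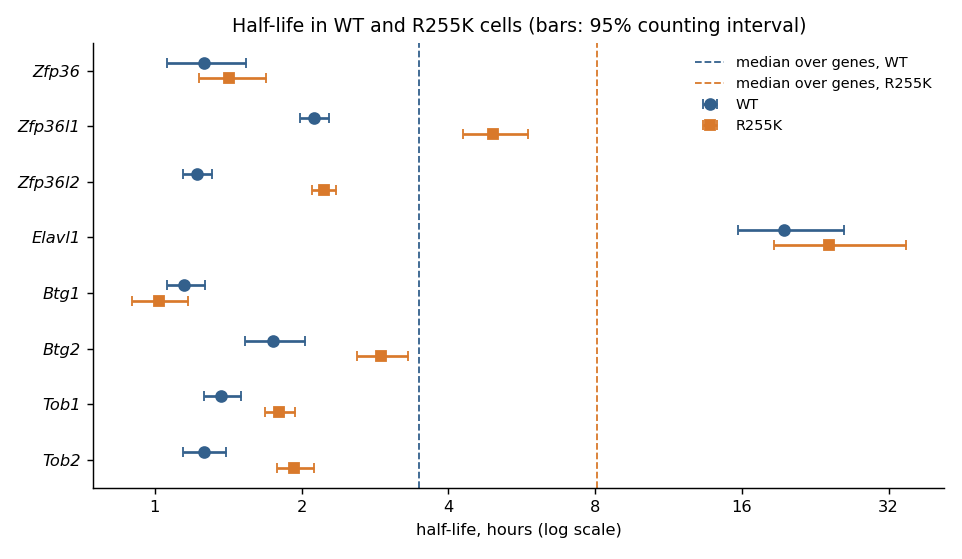
Half-life in hours (log scale) of each gene in WT (blue circles) and R255K (orange squares), with 95% counting intervals, and the medians of 3.48 h and 8.08 h of all genes with a half-life in both genotypes as dashed lines. Elavl1 lies to the right of both lines, the other 7 lie to the left of both medians except Zfp36l1 in R255K at 4.95 h, and Btg1 is the gene whose R255K point is to the left of its WT point.

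The half-life in R255K was over 1.5 times that in WT for 4 of the 8 genes, where 68.8% of the 5504 genes with a half-life in both were past that ratio. With Gapdh scaling it was so for 0 of the 7 members that had a ratio and 2.29% of genes. A ratio under 1/1.5 was found for 0 of the 8 and 5.78% of the 5504 genes. Zfp36l1 was the 1 gene both lower at 0 h by over 1.5 times and past a half-life ratio of 1.5, a pair of features that 15.5% of these genes had. The ratio was 2.33 for Zfp36l1 (1.97 to 2.76), 1.83 for Zfp36l2 (1.67 to 2), 1.67 for Btg2 (1.39 to 2) and 1.54 for Tob2 (1.35 to 1.76). The interval lay wholly above 1.5 for Zfp36l1 and Zfp36l2, and that of Tob1, at 1.32 (1.18 to 1.47), lay above 1 and below 1.5. The interval included 1 for Zfp36 at 1.13 (0.889 to 1.44), Elavl1 at 1.24 (0.84 to 1.83) and Btg1 at 0.879 (0.748 to 1.03). For the last of these it was below 1 under 5 of the other settings, with ratios of 0.83 with TMM (0.703 to 0.98), 0.824 with median of ratios (0.696 to 0.975), 0.832 with the GC trend removed (0.708 to 0.978), 0.803 from 4 h alone (0.65 to 0.993) and 0.59 with Gapdh (0.508 to 0.686). Elavl1 was off 1 in both directions, at 3.51 from 8 h alone (1.88 to 6.55), 2.27 with ribosomal protein genes (1.86 to 2.78) and 0.171 with the GC trend removed (0.0543 to 0.538). Zfp36 was off 1 with Gapdh only, at 0.689 (0.539 to 0.88).

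The members' ratios were mostly on the low side of the distribution over the 5504 genes, with a median of 1.43 for the 8 and 1.98 for the 5504. This order turned under 2 settings, Gapdh scaling, with medians of 0.733 for 7 members and 0.549 for all genes, and the interval from 4 to 8 h, with 2.58 for 4 members and 2.4 for all genes. A higher ratio was found for 39.7% of genes in the case of Zfp36l1 and for 55.3% in the case of Zfp36l2, but for 83.3% in the case of Zfp36 and 90.2% in that of Btg1. The 1283 genes with a WT half-life under 2 h, a choice that uses the ratio's own denominator, had a median ratio of 1.88, with quartiles of 1.47 and 2.59, and 73.5% of them were past 1.5. Within the ZFP36 family the interval of Zfp36 did not reach those of Zfp36l1 and Zfp36l2, and within the BTG pair that of Btg1 did not reach that of Btg2. With Gapdh scaling the interval of Zfp36 (0.539 to 0.88) overlapped that of Zfp36l1 (0.654 to 0.823) but not that of Zfp36l2 (0.886 to 1.06). The interval of Btg1 (0.508 to 0.686) then overlapped that of Btg2 (0.604 to 0.883).

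**Figure D4:**
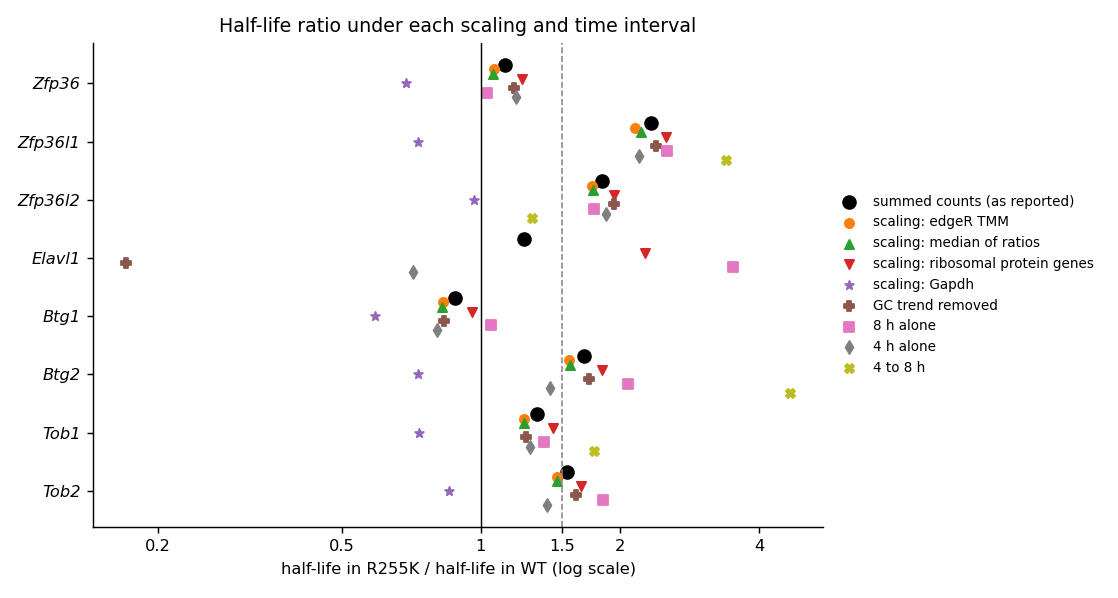
Half-life in R255K over half-life in WT (log scale) of each gene with counts scaled to their sum (black circles, as reported) and under each other scaling or time interval, with lines at 1 and 1.5. The Gapdh-scaled values (stars) fall below 1 for the 7 genes that have one, and Elavl1 spreads from 0.171 with the GC trend removed to 3.51 at 8 h alone. A missing symbol means that no decay was measured in 1 of the genotypes.

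Scaling to Gapdh lowered the ratios of Zfp36l1, Zfp36l2, Btg2, Tob1 and Tob2 to between 0.73 and 0.969, as drawn in the plot of settings. Gapdh itself held 995, 242 and 2357 counts in WT and 331, 787 and 1875 counts in R255K cells at 0, 4 and 8 h, so it was not steady across the libraries, and on this scale the median over genes was 0.549. Elavl1, of which little was lost in either genotype, had the widest range of ratios. All 8 genes passed the filter on low levels, and without it the shares of all genes were 64.1% for a half-life ratio over 1.5, 8.08% and 1.87% for a half-life under 2 h in WT and R255K cells, and 27.8% and 22.4% for a level at 0 h that was higher or lower by over 1.5 times.

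For most of the short-lived members the loss was faster before 4 h than after it. In WT cells 5.58% of Zfp36l2 was left at 4 h, and of that amount 63.6% was still there at 8 h (40.4 to 98.8). For Btg1 these values were 4.79% and 61.5% (31.8 to 115), and for Tob1 8.56% and 48% (28 to 79.8). Btg2 differed from them, with 19.4% left at 4 h and 23.9% of that at 8 h (11.2 to 46.4). The median over all genes of the 8 h level as a share of the 4 h level was 76.5% in WT and 92.6% in R255K cells. In R255K cells the share was 73.5% for Btg2 (57.7 to 93.5), whose interval lay above that of WT, 78% for Zfp36l1 (66.4 to 91.5) against 43% in WT (33.7 to 54.4), and 70.4% for Zfp36l2 (60 to 82.4).

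The m6A peaks on the exons of the 8 genes were examined next. A peak is a stretch where the antibody pull-down exceeded the local background, and the fold enrichment is this excess at its summit. All 8 genes carried an exonic peak in WT cells, against 56.7% of genes at 1 FPKM or more, and 6 carried one in R255K cells, against 43.2%. There were 12 WT peaks, 1 or 2 per gene, and 9 R255K peaks. The motif GGAC, searched on the gene's strand within 100 bases of the summit, was present at 11 of the 12 WT peaks, compared with 79% of all exonic WT peaks and 58% of windows of the same length at exon centres. The exception was the second peak of Btg2. In R255K cells 8 of the 9 peaks had it, compared with 82.4% of all exonic R255K peaks.

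No R255K peak overlapped 4 of the 12 WT peaks by even 1 base, whereas 48% of all exonic WT peaks had none. The first was on Zfp36 (chr7:28379007-28379232), enriched 8.07-fold at a −log10 q of 13.7, in a stretch that also overlaps the gene Gm44710. The second was on Zfp36l1 (chr12:80109519-80110643, fold enrichment 3.38, −log10 q 38.3), a broad peak over the coding sequence with its summit 97 bases before the stop codon. The third was the only peak of Elavl1 (chr8:4289190-4289404, 2.71 and 21.1), in the 3′UTR 313 bases after the stop codon, and the fourth the only peak of Tob2 (chr15:81850483-81851680, 6.47 and 35.2), in coding sequence. The medians over all exonic WT peaks were 6.17 for fold enrichment and 24.6 for −log10 q, so 2 of the 4, those of Zfp36l1 and Elavl1, were weak by fold enrichment. At least 1 WT peak had no counterpart for 4 of the 8 genes, against 55.2% of all genes with a WT peak. Elavl1 and Tob2 had no R255K peak at all, as did 31.4% of genes with a WT peak. When an R255K peak had to cover 50% of the WT peak, 4 of 12 still had none, against 57.1% of all, and of the WT peaks enriched at least 4-fold 2 of 8 had none, against 42%.

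The other 8 WT peaks were found in R255K cells too. On Zfp36l2 (chr17:84185199-84186717) the peak around the stop codon was enriched 11-fold in WT and 7.19-fold in R255K cells, at −log10 q values of 147 and 83.9. It was also narrower in R255K cells, at 1002 against 1519 bases. On Btg1 (chr10:96618186-96618743) the coding peak had a fold enrichment of 10 in WT and 11.1 in R255K cells. The widest gap was on the coding peak of Zfp36 (chr7:28377746-28378531), with 8.33 in WT and 2.8 in R255K cells.

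The remaining kept peaks were the second ones or those near the 5′ end. Tob1 had 6.4 and 5.23 on its coding peak (chr11:94213586-94214458) and 3.3 and 6.12 on its 5′UTR peak (chr11:94211413-94211628). Btg2 had 4.51 and 4.65 at its first peak (chr1:134078778-134079100), in coding sequence, and 4.03 and 6.06 at its second (chr1:134076975-134077561), near the stop codon. The summit of this second peak lay 55 bases before the stop codon in WT and 273 bases after it in R255K cells. Its fold enrichments in the genotypes were therefore read at different places. The peak over the first exon of Zfp36l1 (chr12:80112677-80113036) had 3.32 and 3.35. In all, fold enrichment was lower in R255K for 3 of the 8 kept peaks, those of Zfp36, Zfp36l2 and the coding sequence of Tob1, where 70.6% of all kept exonic peaks were lower. Btg1 had 1 further peak (chr10:96617361-96617625, fold enrichment 4.95) in R255K cells only, a class that held 13.1% of exonic R255K peaks. The depth behind the lists is unknown, and a peak missing from a list is a peak that was not called, which is not the same as no m6A.

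**Figure D5:**
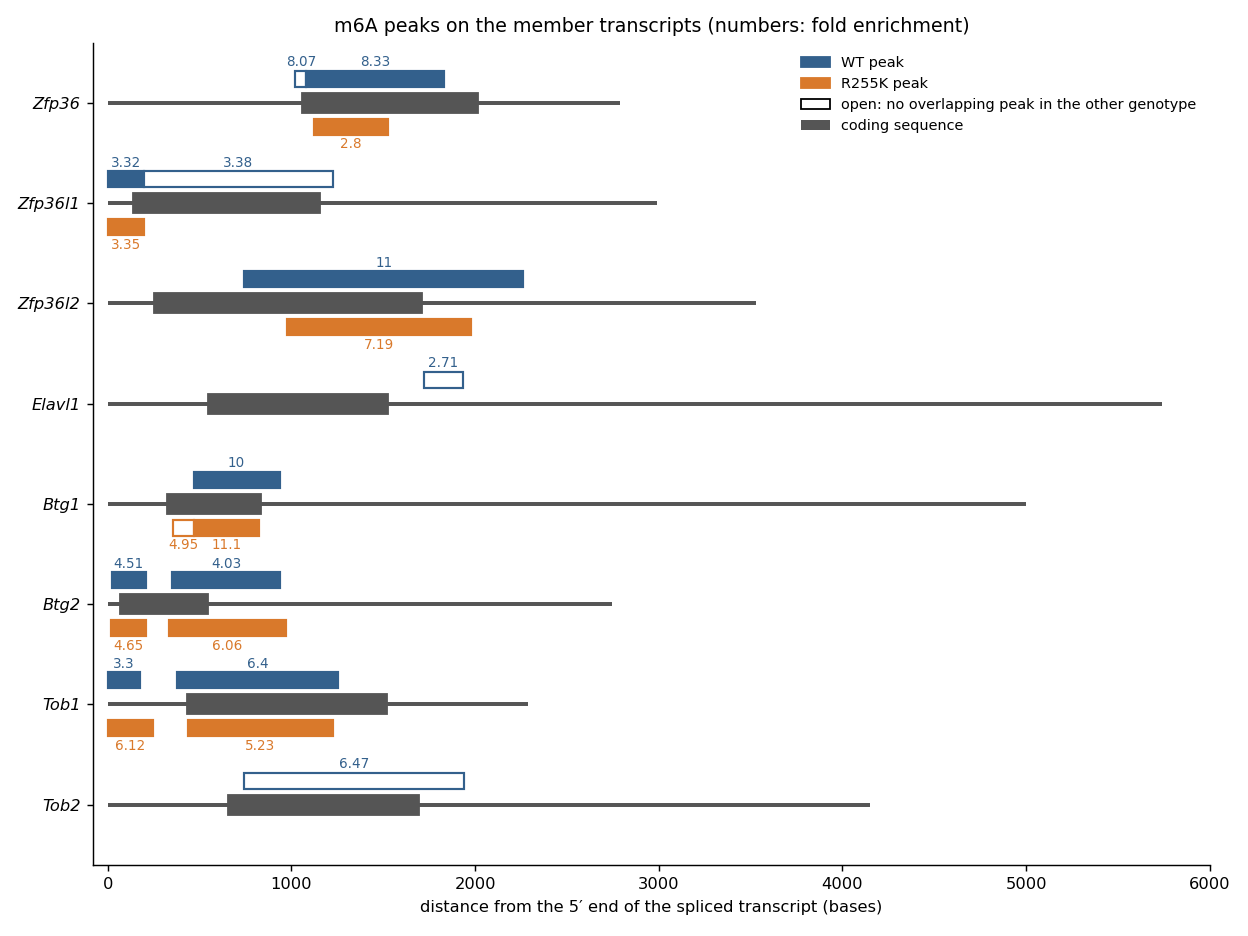
Exonic m6A peaks of WT (blue, above) and R255K (orange, below) drawn to scale on the spliced reference transcript of each gene, in bases from its 5′ end, with the coding sequence as a thick bar, the fold enrichment beside each peak, and open boxes for peaks without an overlapping peak in the other genotype. Elavl1 and Tob2 have no R255K peak, Zfp36 and Zfp36l1 each lack 1 of 2, and Btg1 has an open R255K box.

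Set side by side, loss of a peak and a longer half-life did not always fall on the same gene. Zfp36l1 and Tob2 had a WT peak without counterpart and ratios of 2.33 and 1.54. Zfp36 and Elavl1 also had one, with ratios of 1.13 and 1.24. Zfp36l2 and Btg2 kept all their peaks and had ratios of 1.83 and 1.67, and Tob1 and Btg1 kept theirs with 1.32 and 0.879. With 8 genes this is a description and no relation was tested.

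The partners and targets of these proteins were taken from lists of genes. Of 16 deadenylation genes, which include the CCR4-NOT subunits that the BTG, TOB and ZFP36 proteins contact, all 16 were at 1 FPKM or more and 8 had a half-life in both genotypes, with a median ratio of 1.68. The ratio was over 1.5 for 4, against 68.8% of all genes with a ratio, namely Cnot4 at 2.36, Cnot6l at 3.58, Cnot8 at 1.87 and Pan3 at 2.38, named here after their values were seen. Cnot6l, a catalytic deadenylase subunit, had the highest, its half-life being 1.69 h in WT cells against 6.05 h in the knock-in line (ratio interval 2.54 to 5.05). Cnot3, another CCR4-NOT subunit, had the lowest ratio. It was at 25.6, 25.7 and 23.8 FPKM in WT cells, however, and so showed too little decay for a usable ratio. At 0 h 0 of the 16 were higher and 1 was lower in R255K by over 1.5 times, against 20.8% and 19.5% of all genes. A WT peak was present on 11 of the 16, against 56.7% of all genes, and 7 of these lacked a counterpart for at least 1 peak, against 55.2%.

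Of 11 genes of decapping and 5′ to 3′ decay, the steps that follow deadenylation, 9 had a half-life in both genotypes, with a median ratio of 1.74. It was over 1.5 for 6 and under 1/1.5 for 3, against 68.8% and 5.78% of all genes with a ratio. Lsm14a, a P-body component, had the highest at 3.47, with an interval from 0.479 to 25.1, and its paralogue Lsm14b the lowest, at levels of 32.9, 36.1 and 27.3 FPKM in WT cells that showed next to no decay. At 0 h 2 of the 11 were higher and 3 were lower in R255K by over 1.5 times, against 20.8% and 19.5%.

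A list of 13 other genes was drawn up for AU-rich element binders, and it also held Rc3h1, Rc3h2 and Zc3h12a, for which that label is loose. Of the 13, 11 were at 1 FPKM or more. At 0 h 6 of the 11 were lower in R255K by over 1.5 times and 0 were higher, against 19.5% and 20.8% of all genes. The 6 include Rc3h2 and Zc3h12a, at log2 ratios of −1.62 and −1.57, named after their values were seen. The median log2 ratio of the 11 was −0.59, against 0.06 for all genes. A half-life in both genotypes was obtained for 6, with a median ratio of 1.5. Elavl2, a paralogue of Elavl1 that is best known from neurons, had the highest. It was at 3.26, 0.602 and 0.357 FPKM in WT and at 1.62, 1.39 and 0.723 FPKM in R255K cells, which gave half-lives of 1.98 h and 9.92 h and a ratio of 5 (3.1 to 8.05). In untreated cells its log2 ratio was −1.01. Hnrnpd (AUF1) had the lowest ratio, again with little decay in WT cells at 62.4, 66.5 and 52.8 FPKM. Of the other BTG genes, Btg3 had a log2 ratio of 0.69 at 0 h and no decay relative to the library total in R255K cells. Btg4 had 0 counts in all 6 libraries.

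Transcripts known to carry AU-rich elements, the targets of ZFP36 proteins in other cells, formed a list of 16, of which 10 were at 1 FPKM or more. Of these 10, 8 had a half-life under 2 h in WT and 5 in R255K cells, against 11% and 2.3% of all genes. The median ratio was 1.29, near the 1.43 of the 8 genes above and below the 1.98 of all genes with a ratio, and it was over 1.5 for 3, against 68.8%, namely Mcl1, Pim1 at 2.09 and Plk3 at 1.56, the last named after its value was seen. Mcl1, an anti-apoptotic BCL2 relative, had the highest, with half-lives of 1.69 h and 3.62 h and a ratio of 2.14 (2.06 to 2.22). Cyclin D1 (Ccnd1) had the lowest of the 10 at 0.571 (0.223 to 1.46), and with 46.9, 47.1 and 40.3 FPKM in WT cells it too lost little.

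For 7 of the 8 genes, all but Elavl1, the gene with the most similar course over the 6 libraries was looked up among 11868 others, by the distance between log2(FPKM + 1) profiles taken relative to the WT 0 h value. It was Luzp1 for Zfp36l1 (distance 0.22), Pim1 for Zfp36l2 (0.33), Zfp217 for Btg1 (0.35), Patz1 for Btg2 (0.23), Bag5 for Tob1 (0.29) and Exoc8 for Tob2 (0.14). Luzp1 was at 29.3, 6.61 and 2.64 FPKM in WT and at 14.6, 8.57 and 6.25 FPKM in R255K cells, with the same crossing as Zfp36l1. Patz1 was at 20.3, 4.8 and 2.59 FPKM in WT and at 32.2, 12.2 and 9.59 FPKM in R255K cells, higher in R255K at each time like Btg2. Both likenesses follow from the choice by distance over the same 6 libraries and are no separate result. For Zfp36 it was Gm22935 (0.19), which was at 2.21 and 2.46 FPKM at 0 h and listed at 0 in the 4 treated libraries. Its treated counts were thus set to the floor of 3, and its computed half-lives were 33.8 h (WT) and 7.96 h (R255K). Those of Zfp36 were 1.26 h (WT) and 1.42 h (R255K). The likeness in profile was therefore not one in half-life.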

How the data were processed

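MeRIP-seq peak lists (2 IP and 2 input libraries per genotype) and counts per gene from the actinomycin D course (1 library per genotype and time, 6 in all) were used. The authors removed rRNA reads, aligned the rest to mm10 and kept unique reads. The submitters' processing notes name Bowtie2 2.2.6, HISAT2, Picard 2.16.0, SAMtools and MACS2. The deposited counts are whole numbers per gene, not normalized. The counting tool, its strand setting and the annotation are not given in the sources used here. The deposited peak lists, 1 per genotype, hold MACS2's fold enrichment (a ratio to the local background), −log10 q and the score that MACS2 writes from q, as run by the authors. How replicate libraries entered the peak calls is not given in the sources used here, and the depth behind the lists is unknown.

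FPKM was computed from the counts, the exonic length in the tables and the total per library (13812160 to 18813640 counts). The decay rate is the average of 2 natural log terms on FPKM, the 0 to 4 h drop divided by 4 and the 0 to 8 h drop divided by 8, with counts under 3 at 4 or 8 h set to 3, and the half-life is ln2 over the rate where the rate is above 0. Because FPKM is scaled to the library total, rates, half-lives and their ratios are relative to the other transcripts of a library. No added reference RNA is described in the sources used here. All-gene values are over 11869 genes with a mean untreated FPKM of at least 1. Intervals of levels are exact Poisson, those of level ratios exact conditional binomial, and those of half-lives come from Poisson errors by the delta method. They cover counting error only. The half-life script was tested on simulated data. With 1 library per group no test between genotypes was run, and sizes past 1.5-fold are counted beside the share of all genes. Peaks were matched by an overlap of at least 1 base with bedtools 2.31.1 and placed on GENCODE vM21, and sequences were read from the RefSeq copy of GRCm38 with pysam 0.24.0. The length in the count table differs from this annotation for Tob2 (3994 against 6664 bases of exon), and the 7 other lengths match it. Each motif was searched on the gene's strand. Scripts ran in Python 3.11.15 (scipy 1.17.1, pandas 2.3.3, numpy 2.4.6, statsmodels 0.14.6, matplotlib 3.10.9), and edgeR 4.0.16 in R 4.3.3 gave TMM factors only. The alternatives were other scalings, single times, a GC correction (lowess span 0.3), no expression filter, a pseudocount of 1, and other peak thresholds.

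The 8 genes and the gene lists were chosen with earlier results of these data known. The text names all 8 genes, Mettl14, the gene with the highest and that with the lowest half-life ratio in each list, and the gene with the nearest profile to each of the 8. Only genes with a mean untreated FPKM of at least 1 were considered for the choices by ratio and by profile. The nearest profile to Elavl1 is not reported here. Genes named outside this rule are marked as such.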

Additional observations from a re-analysis of the deposited data

How the results depend on the processing

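Of the counts given above, the 4 genes with a half-life ratio over 1.5 became 0 with Gapdh scaling and 2 from 4 h alone. Under the other settings this count ran from 3, as with TMM and median of ratios, to 5, as with ribosomal protein genes. The 6 genes with a WT half-life under 2 h became 1 when the rate was taken from 4 to 8 h, and the 4 such genes in R255K cells became 2 from 8 h alone and 0 from 4 to 8 h. Elsewhere the count ran from 5 to 7 in WT and from 3 to 6 in R255K cells. The 1 gene higher at 0 h became 0 when scaled to 89 ribosomal protein genes and 6 with Gapdh, and the 2 lower genes became 0 with Gapdh. Among peaks of fold enrichment of at least 4, 2 of 8 WT peaks had no counterpart. With Gapdh the half-life ratio turned to 0.733 for Zfp36l1, 0.969 for Zfp36l2, 0.73 for Btg2, 0.735 for Tob1 and 0.852 for Tob2, and the log2 ratio at 0 h to 0.48 for Zfp36l1 and 0.46 for Btg1. Gapdh counts varied between libraries, and this scaling moved the median log2 ratio of all genes at 0 h to 1.49. The log2 ratio of Tob1 at 0 h turned to −0.18 relative to its chromosome. The cause was not tested. Of the other recomputed values for single genes, 47 half-life ratios and 37 ratios at 0 h stayed within their error, and 13 and 16 did not. No paired analysis was possible because each peak list holds 1 call per genotype and the decay course has 1 library per group, and for the same reason no replicate could be left out. Counts of 8 to 30 at 4 and 8 h limit the values of Zfp36 and Btg1. In the WT library at 8 h, Btg2, Tob2 and Tob1 held counts in the same range, 11, 15 and 23, which limits their values at that time.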
